A study of Mus musculus with 12 samples.

Results

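The postnatal change of cortical interneurons was set against the postnatal change of cortical pyramidal cells, gene by gene. A gene entered with a single gene symbol and with 1 probe set, the one of highest mean over the 12 arrays, which gave 19937 genes out of 28192 probe sets on the array. Each gene was then placed in a class according to whether it rose or fell in both populations, in a single population, or in opposite directions. A change was called at an adjusted p under 0.05 (limma, Benjamini-Hochberg over 22961 probe sets) and a fold change over 2, which is a difference over 1 on the log2 scale. A change was assigned to a single population only where the difference between the changes was itself called at the same thresholds.

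The interneurons (IN) were GFP+ cells sorted by FACS from cortices of Nkx2-1Cre;RCE:LoxP mice at P0 and P10. The pyramidal cells (Pyr) were GFP+ cells from somatosensory cortices of NexCre;RCE:LoxP mice at P0 and P12. All mice were C57BL6, and each of the 4 groups (IN P0, IN P10, Pyr P0 and Pyr P12) held 3 arrays, with the labels A, B and C for biological replicates. Cre is driven in the first line by Nkx2-1, a transcription factor of progenitors in the medial ganglionic eminence (MGE), and in the second by Nex (Neurod6), a transcription factor of young excitatory neurons. The progenitors that express Nkx2-1 also give rise to some oligodendrocyte lineage cells. The later ages differ by 2 days and the labels name the somatosensory cortex for the pyramidal cells alone, so population, age span and cortical area cannot be told apart. Whether animals were pooled for an array is not stated. The p-values set each change against the spread of these arrays within groups. In limma that spread is estimated over all 4 groups together and adjusted with that of the other probe sets.

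In the first postnatal weeks cortical neurons leave the program of migration and axon growth, acquire mature ion channels and transmitter receptors, and form synapses. Pyramidal cells release glutamate, send axons over long distances and respond to activity with immediate early genes. MGE-derived interneurons release GABA, arborize locally, and mature into parvalbumin and somatostatin cells that also express neuropeptides and become wrapped in specialized extracellular matrix.

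The sorted populations carried the markers of their labels, with genes of other cells at lower levels. Correlations across probe sets were between 0.9948 and 0.9985 within groups and between 0.9413 and 0.9828 across groups. The background level of an array, taken from 1210 probe sets of olfactory and vomeronasal receptors (their 95th percentile), was between 7.131 and 7.453. The mean of 7 pan-interneuron genes was between 11.9 and 12.18 on IN arrays, between 8.729 and 9.207 in Pyr P0 and between 7.675 and 7.808 in Pyr P12. The mean of 17 pyramidal genes was between 10.83 and 11.03 on Pyr arrays, between 9.138 and 9.483 in IN P0 and between 8.598 and 8.611 in IN P10. Thus genes of the other population were measured at P0 at a higher level than later in both sorts. The mean of 12 oligodendrocyte precursor genes was between 9.497 and 10.15 on IN arrays and between 7.643 and 7.895 on Pyr arrays. Xist, which is transcribed from the inactive X chromosome, read 12.54, 12.56 and 7.27 in Pyr P0 and between 11.48 and 13.28 elsewhere, so the third Pyr P0 array stood apart. In the mean of 4 sex-linked genes, Xist among them, that array (9.345), the second IN P0 array (9.25) and the first IN P10 array (9.416) were below the others, at 9.804 to 10.24. This mean joins Xist with Uty, Eif2s3y and Kdm5d, genes of the Y chromosome, so a low mean does not say which gene was low. Xist was low on the third Pyr P0 array, while the named IN arrays were within its range of 11.48 to 13.28. The sex make-up of the arrays was not tested. Without the second IN P0 array, 913 genes were called higher and 503 lower in IN, and without the first IN P10 array 906 and 513, against 886 and 495 with all. Without the third Pyr P0 array, 1198 genes were called higher and 677 lower in Pyr, against 1195 and 623 with it. In sorted bulk RNA, fewer cells of a type and less RNA per cell cannot be told apart.

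**Figure D1:**
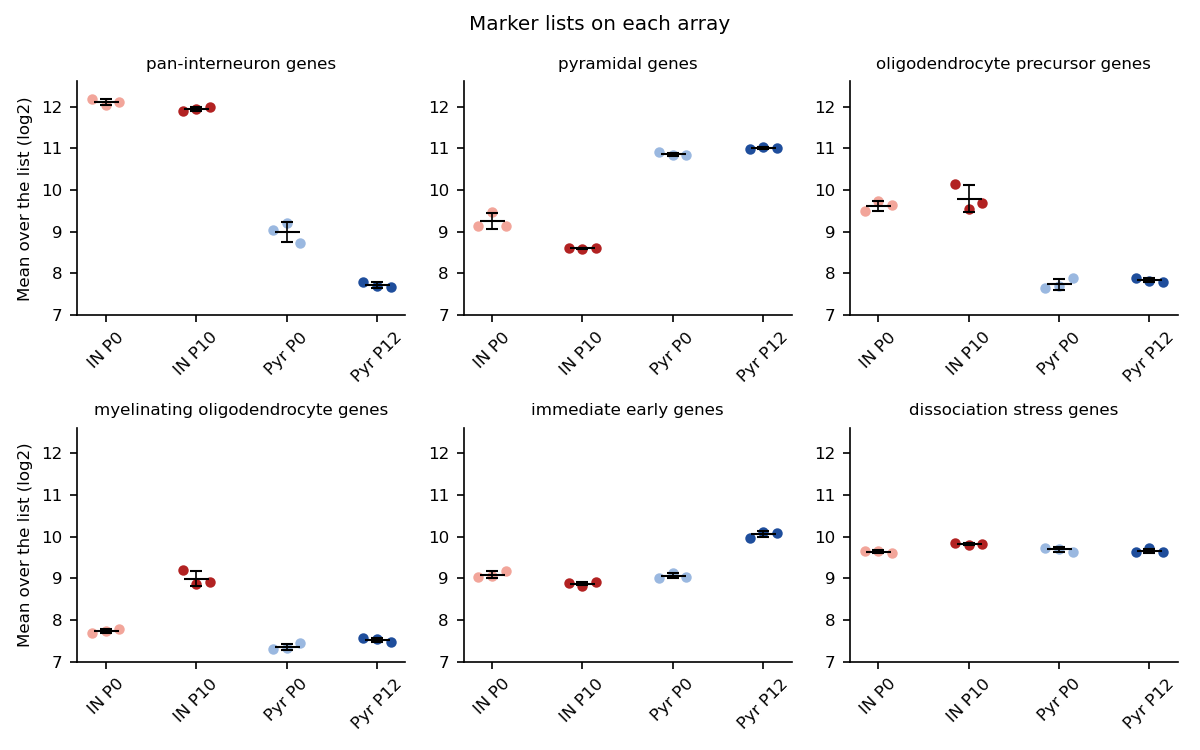
Mean log2 expression over 6 marker lists (panels) on each of the 12 arrays; points are arrays, the bar is the group mean and whiskers are the SD (n = 3). In Pyr the pan-interneuron genes were lower at P12, in IN the pyramidal genes were lower at P10, and immediate early genes highest in Pyr P12.

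Most genes called in both populations moved the same way. IN P10 exceeded IN P0 in 886 genes (4.44% of those tested) and lay below it in 495 (2.48%). Pyr P12 exceeded Pyr P0 in 1195 genes (5.99%) and lay below it in 623 (3.12%). Of these, 504 genes rose in both populations (2.53%) and 256 fell in both (1.28%), against 11 that rose in IN and fell in Pyr (0.0552%) and 4 that fell in IN and rose in Pyr (0.0201%). The shared genes made up 56.88% of the genes that rose in IN and 42.18% of those that rose in Pyr. For genes that fell the shares were 51.72% and 41.09%. Across the 19937 genes, the changes had a Pearson r of 0.668 and a Spearman rho of 0.630. The 2 changes share no array but were normalized together, and genes are not independent replicates. Over all genes the spread of the change (SD) was 0.535 in IN and 0.615 in Pyr, and the medians were 0.01 and 0.07.

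The changes also differed between populations in 967 genes. The IN change was above the Pyr change in 450 (2.26%) and below it in 517 (2.59%). This balance turned with the scaling, with 478 above and 480 below after centring each array on its median and 502 and 456 after a second quantile normalization. A change called in IN with a called difference to Pyr was found in 170 genes that rose (0.853%) and 54 that fell (0.271%). In Pyr the corresponding numbers were 324 (1.63%) and 151 (0.757%). A further 382 genes were called in IN and 568 in Pyr without a called difference, and these were left undecided. Calling genes from a pass in one population and a miss in the other, without the test of the difference, would have given 371 and 235 for IN and 687 and 356 for Pyr. The threshold divided near neighbours. Plppr5 (IN change 1.0003) was called and Rell2 (0.9999) was not, and in Pyr Tmem117 (1.0002) was called and Npm1 (-0.9997) was not. The difference of Vgll4 (-1.0005) was called and that of Pde2a (-0.9996) was not. Such calls depended on single arrays, with 0.95 for Plppr5 without the second IN P0 array, 0.92 for Tmem117 without the first Pyr P12 array and -0.91 for Vgll4 without the third IN P10 array.

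**Figure D2:**
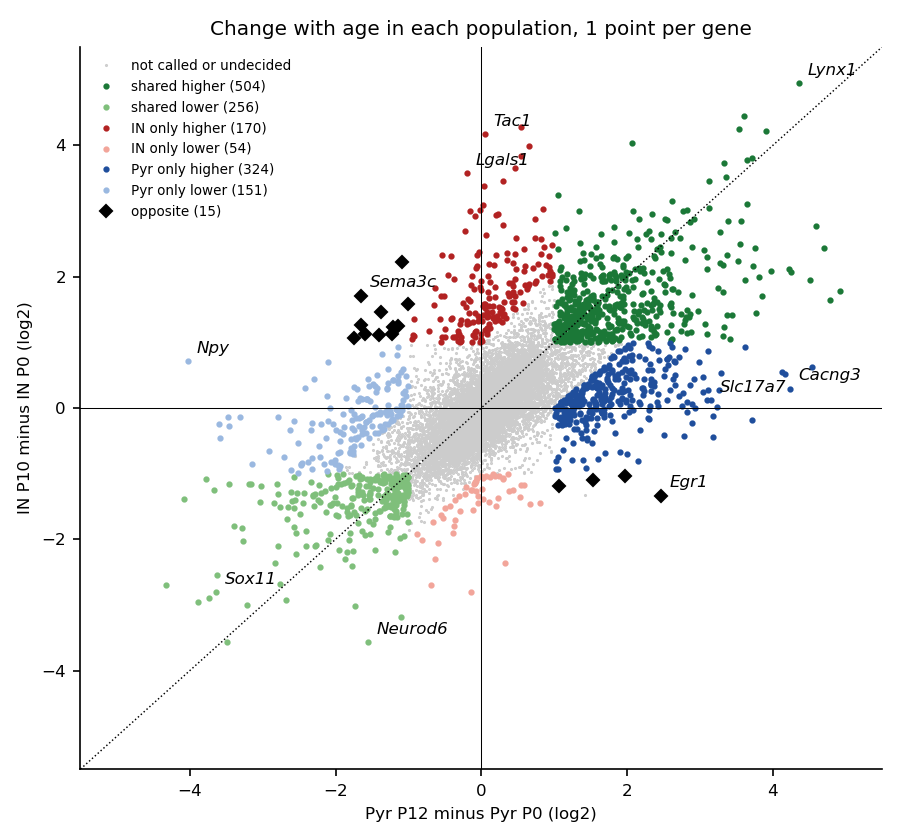
Change with age in IN (y axis, log2) against change with age in Pyr (x axis, log2), 1 point per gene for 19937 genes, coloured by class; the dotted line marks equal changes. Shared genes (504 higher, 256 lower) fill the corners along the line, single-population genes lie along the axes, and the 15 opposite genes (diamonds) stand in the other corners.

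The genes Npy, Lgals1, Cacng3 and Egr1 mark the classes, 1 for each pattern: a fall in Pyr, a rise in IN, a rise in Pyr and a change of opposite sign. Npy, the precursor of neuropeptide Y, measured 12.38, 12.51 and 12.01 in IN P0, 13.19, 13.0 and 12.86 in IN P10, 13.09, 13.08 and 13.23 in Pyr P0 and 9.14, 8.96 and 9.25 in Pyr P12. It was high on 9 arrays and low on the 3 of Pyr P12, with no overlap between the Pyr ages. Npy fell by 4.02 ± 0.12 (SE; adjusted p = 9.97e-12) in Pyr, and in IN the difference of 0.71 ± 0.12 (SE; adjusted p = 0.000206) stayed under the fold threshold. At P0 its mean was 13.13 in Pyr and 12.30 in IN, so the pyramidal level was not below that of the interneurons. Lgals1, which encodes the sugar-binding protein galectin-1, measured 8.39, 8.45 and 8.32 in IN P0, 11.96, 12.04 and 11.89 in IN P10, 8.25, 8.42 and 8.23 in Pyr P0 and 8.08, 8.01 and 8.22 in Pyr P12. The 3 IN P10 arrays stood apart from the other 9. Lgals1 rose by 3.58 ± 0.07 (SE; adjusted p = 1.43e-12) in IN, and its Pyr difference was -0.2 ± 0.07 (SE; adjusted p = 0.0324).

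Cacng3, an auxiliary subunit of AMPA-type glutamate receptors, measured 12.24, 12.26 and 12.28 in IN P0, 12.53, 12.59 and 12.54 in IN P10, 8.69, 8.75 and 8.04 in Pyr P0 and 12.8, 12.71 and 12.69 in Pyr P12. Only the Pyr P0 arrays were low, and the third of them, the array that differed in Xist, was the lowest. Cacng3 rose by 4.24 ± 0.14 (SE; adjusted p = 1.90e-11) in Pyr and differed by 0.29 ± 0.14 (SE; adjusted p = 0.098) in IN, where it had been at 12.26 at P0. Egr1, a transcription factor induced by neuronal activity, measured 10.3, 10.05 and 10.64 in IN P0, 9.11, 8.87 and 9.01 in IN P10, 8.97, 9.5 and 9.27 in Pyr P0 and 11.56, 11.98 and 11.6 in Pyr P12. Its Pyr P12 arrays lay above and its IN P10 arrays below all arrays of the same population at P0. Egr1 fell by 1.34 ± 0.16 (SE; adjusted p = 8.03e-06) in IN and rose by 2.46 ± 0.16 (SE; adjusted p = 1.56e-08) in Pyr.

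**Figure D3:**
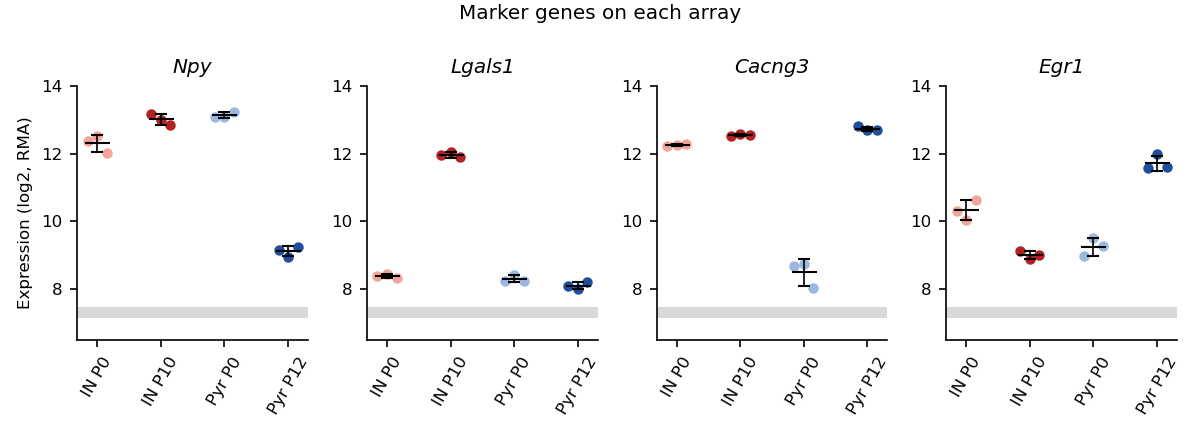
Log2 expression of Npy, Lgals1, Cacng3 and Egr1 on each of the 12 arrays by group; points are arrays, the bar is the group mean, whiskers are the SD (n = 3) and the grey band is the range of the background level (7.131 to 7.453). Npy was low in Pyr P12, Lgals1 high in IN P10, Cacng3 low in Pyr P0, and Egr1 moved in opposite directions.

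The shared rise included potassium channel, GABA receptor and glycolysis genes. The 10 genes with the largest shared rise were Lynx1, Tuba4a, Lgi3, Cntnap1, Thy1, Slc24a2, Nceh1, Mal2, Nrip3 and Slc30a3. Lynx1, a membrane-anchored modulator of nicotinic acetylcholine receptors, measured 7.73, 7.58 and 7.65 in IN P0, 12.67, 12.48 and 12.67 in IN P10, 7.55, 7.45 and 7.65 in Pyr P0 and 11.96, 11.82 and 11.95 in Pyr P12. It rose by 4.95 ± 0.07 (SE; adjusted p = 1.49e-13) in IN and rose by 4.36 ± 0.07 (SE; adjusted p = 1.28e-13) in Pyr, and the ages did not overlap in either population. Thy1, a neuronal surface glycoprotein, measured 8.53, 8.69 and 8.16 in IN P0, 12.81, 12.88 and 13.03 in IN P10, 9.34, 9.76 and 9.63 in Pyr P0 and 13.17, 13.16 and 13.22 in Pyr P12. It rose by 4.45 ± 0.12 (SE; adjusted p = 1.56e-11) in IN and rose by 3.61 ± 0.12 (SE; adjusted p = 3.78e-11) in Pyr. Cntnap1, the axonal partner of the paranodal junction, was not above background on any P0 array and read 10.74, 10.76 and 10.97 in IN P10 and 10.38, 10.69 and 10.84 in Pyr P12. It exceeded background at the later age by at least 12-fold in IN and at least 10.6-fold in Pyr. Slc30a3, the vesicular zinc transporter best known from glutamatergic terminals, rose by 3.1 ± 0.11 (SE; adjusted p = 7.53e-11) in IN and rose by 3.65 ± 0.11 (SE; adjusted p = 7.49e-12) in Pyr.

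Of 36 potassium and HCN channel genes measured, 16 rose in both populations, against 2.53% of all genes, 1 in IN alone and 2 in Pyr alone, and none fell. Where a pair of changes is given, that of IN comes first. Counts of list members are to be read beside the share of all genes in the same class, given above. The median change of the list was 1.12 in IN and 1.28 in Pyr, against 0.01 and 0.07 over all genes. Kcna1, an axonal channel subunit, measured 7.72, 8.04 and 7.98 in IN P0, 10.06, 10.2 and 10.4 in IN P10, 9.2, 9.17 and 9.13 in Pyr P0 and 10.96, 10.94 and 11.06 in Pyr P12, with no overlap between ages, and rose by 2.31 and 1.82. Kcnj9, a G protein-gated channel, rose more in Pyr (2.74 against 1.17). Kcnab1, a channel subunit of the beta family, measured 8.31, 8.26 and 8.16 in IN P0, 11.16, 11.19 and 11.22 in IN P10, 9.93, 10.09 and 9.87 in Pyr P0 and 10.07, 10.18 and 10.22 in Pyr P12. It rose by 2.94 ± 0.07 (SE; adjusted p = 2.64e-12) in IN, and the Pyr difference was 0.2. Kcnh5 rose in Pyr by 2.53, with an IN difference of 0.59. Of 15 genes for GABA receptors and chloride transport, 5 rose in both, against 2.53% of all genes, and none in a single population (medians 0.79 and 0.8). Gabra4 rose by 3.0 and 2.76, and Gabrd by 2.59 and 2.61. Slc12a5, the neuronal chloride exporter KCC2, rose by 1.28 in IN and by 2.79 in Pyr, and the difference of -1.51 ± 0.08 (SE; adjusted p = 2.76e-08) was called. At P0 it stood at 10.99 in IN and 9.74 in Pyr.

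Of 16 glycolysis and lactate genes, 6 rose in both populations, against 2.53% of all genes, and none in a single one (medians 1.06 and 0.85). Aldoa, the glycolytic aldolase, measured 11.41, 11.53 and 11.22 in IN P0, 13.29, 13.29 and 13.41 in IN P10, 11.19, 11.34 and 11.31 in Pyr P0 and 13.27, 13.27 and 13.24 in Pyr P12, with no overlap between ages, and rose by 1.95 and 1.98. Eno2, the neuronal enolase, rose by 2.57 and 2.14. The 40 oxidative phosphorylation genes had smaller differences: 39 were positive in both populations, with medians of 0.6 and 0.49. Of these 40, 3 were called, all higher in IN, against 4.44% of all genes. Over all 19937 genes, 70.8% had changes of the same sign in both populations, positive or negative. Among 23 microtubule and neurofilament genes, 5 rose in both, 2 in IN alone and 1 in Pyr alone (medians 0.62 and 0.38). The shares over all genes were 2.53%, 0.853% and 1.63%. Tuba4a, an alpha-tubulin, rose by 4.23 and 3.9. The neurofilament genes divided over the classes. Nefl, the light chain, rose in both (2.68 and 2.66), Nefm, the medium chain, rose in Pyr (1.87, with 0.11 in IN), and Nefh, the heavy chain, rose in IN (1.94, with 0.94 in Pyr). The difference of Nefh was no longer called when any of 6 arrays was left out, the lowest value being 0.91 without the third Pyr P0 array.

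The shared rise was not equal in size in every gene. Of the 504 genes, 68 also had a called difference, 58 of them with the larger rise in Pyr and 10 with the larger rise in IN. Lamp5, a lysosome-associated membrane protein of neurons, measured 7.29, 7.42 and 7.22 in IN P0, 9.07, 8.78 and 9.01 in IN P10, 7.22, 7.41 and 7.32 in Pyr P0 and 12.25, 12.05 and 12.02 in Pyr P12. Its Pyr P12 arrays stood above all others, and it rose by 4.79 in Pyr against 1.64 in IN. Camk2a, the alpha subunit of calcium/calmodulin-dependent kinase II, rose by 3.1 in Pyr and by 2.12 in IN, a difference that was not called. Slit2, a secreted axon guidance protein, rose more in IN (2.52 against 1.36), a difference that was lost without the first Pyr P0 array (0.97).

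The shared fall included transcription factors and other genes of young neurons, the Polycomb gene Ezh2 and RNA-binding proteins. The 10 genes with the largest shared fall were Syne2, Mex3a, Gpc2, Sox11, Igfbpl1, Ezh2, Zfp558, Prkd3, Snhg5 and Sema4c. Sox11, a transcription factor of immature neurons, measured 13.27, 13.21 and 13.26 in IN P0, 10.5, 10.45 and 10.38 in IN P10, 13.45, 13.24 and 13.23 in Pyr P0 and 9.67, 9.61 and 9.73 in Pyr P12. It fell by 2.8 ± 0.06 (SE; adjusted p = 2.64e-12) in IN and fell by 3.64 ± 0.06 (SE; adjusted p = 1.87e-13) in Pyr. Ezh2, the methyltransferase of Polycomb repressive complex 2, measured 12.04, 11.94 and 12.0 in IN P0, 9.48, 9.3 and 9.16 in IN P10, 12.04, 11.86 and 11.81 in Pyr P0 and 9.01, 9.28 and 9.13 in Pyr P12. It fell by 2.68 ± 0.09 (SE; adjusted p = 6.86e-11) in IN and fell by 2.76 ± 0.09 (SE; adjusted p = 2.35e-11) in Pyr, and for Sox11 and Ezh2 alike no array of one age overlapped the other. Mex3a, an RNA-binding protein, fell in IN (-2.95) and in Pyr (-3.89). Syne2, a nuclear envelope protein of the nesprin family, was not above background in Pyr P12, at least 8.15-fold lower than in Pyr P0, and fell by 3.0 in IN. Zfp558, a zinc finger protein, was likewise not above background in Pyr P12, at least 8.79-fold lower than in Pyr P0, and fell by 2.55 in IN.

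All 9 called genes among 18 immature neuron genes fell, 6 in both populations, against 1.28% of all genes, and 3 in Pyr alone, against 0.757%. The medians were -0.34 in IN and -0.93 in Pyr. Dcx, a microtubule-binding protein of migrating neurons, fell in IN (-1.06) and in Pyr (-1.29). Igfbpl1 measured 10.2, 10.59 and 10.12 in IN P0, 7.52, 7.65 and 7.64 in IN P10, 12.24, 11.92 and 11.97 in Pyr P0 and 7.64, 7.99 and 7.54 in Pyr P12. It fell in IN (-2.7) and in Pyr (-4.32), and the difference of 1.62 ± 0.19 (SE; adjusted p = 1.85e-05) was called. Tubb2b, a beta-tubulin of growing neurons, fell by 1.78 in Pyr, with a difference of -0.3 in IN. As in the shared rise, most called differences had the larger change in Pyr: of 33 among the 256 shared lower genes, 29 fell further in Pyr and 4 further in IN.

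Of 31 cytosolic ribosome genes, 29 had negative differences in both populations, with medians of -0.7 and -0.67. Of all genes, 70.8% had the same sign in both, positive or negative. A fall was called in both for 2 of the 31, Rpl7 and Rps20, against 1.28% of all genes. A further 7 were called in Pyr and 1 in IN without a called difference. Rps20 measured 13.44, 13.43 and 13.27 in IN P0, 12.7, 12.29 and 12.02 in IN P10, 13.46, 13.47 and 13.26 in Pyr P0 and 12.06, 12.11 and 12.09 in Pyr P12 and fell in IN (-1.04) and in Pyr (-1.32), and its IN call was lost without the third IN P10 array (-0.89). Ribosomal protein genes have near-identical processed copies that probe sets may not separate. Among 29 RNA binding and splicing genes, 3 fell in both (Msi1, Igf2bp3 and Khdrbs2), 1 fell in Pyr alone (Igf2bp1) and 2 rose in Pyr alone (Nova1 and Rbfox3). Over all genes these shares were 1.28%, 0.757% and 1.63%. Msi1, an RNA-binding protein of neural progenitors, fell in IN (-1.5) and in Pyr (-2.29). Rbfox3, the gene of the neuronal antigen NeuN, rose by 1.16 in Pyr and differed by -0.08 in IN. The fall of Igf2bp1 was at least 4.05-fold, and its second probe set had a Pyr difference of -0.05. Of 19 cell cycle genes, Ccnb2 fell in both and Rrm2 in Pyr, with list medians of -0.33 and -0.01. Of 12 DNA methylation genes, Dnmt3a, a de novo methyltransferase, rose in both (1.14 and 1.49) and Uhrf2 fell in both (-1.34 and -1.01). The Pyr call of Uhrf2 was lost without any 1 of 3 arrays (-0.97, -0.96 and -0.97 without the first and second Pyr P0 and the first Pyr P12 array).

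Genes that rose in IN alone included neuropeptides and extracellular matrix proteins. With Pyr above background, the 8 genes of largest difference were Lgals1, Lpl, Rbp4, Pcp4l1, Calb2, Th, Ret and Zfp804a. With Pyr not above background at either age, which held for 22 of the 170 genes, the 4 largest were Tac1, Hapln1, Crhbp and Nek7. Tac1, the precursor of substance P, measured 8.15, 7.71 and 7.47 in IN P0 and 12.09, 11.92 and 11.85 in IN P10, while no Pyr array exceeded 6.11. It rose by 4.17 ± 0.14 (SE; adjusted p = 6.09e-11) in IN. Hapln1, a link protein that ties hyaluronan to proteoglycans, was not above background in IN P0 and measured 10.76, 10.37 and 10.64 in IN P10, at least 10.3-fold higher. Lpl, lipoprotein lipase, measured 7.69, 7.81 and 7.59 in IN P0, 11.66, 11.73 and 11.65 in IN P10, 9.66, 9.97 and 9.81 in Pyr P0 and 10.46, 10.45 and 10.47 in Pyr P12. It rose by 3.99 ± 0.08 (SE; adjusted p = 1.30e-12) in IN and differed by 0.65 in Pyr, where it had been higher than in IN at P0. Calb2, the calcium-binding protein calretinin, was not above background in IN P0 and rose at least 7.55-fold, with a Pyr difference of 0.03. Nek7, a serine/threonine kinase of microtubule regulation, rose by 3.65 ± 0.08 (SE; adjusted p = 1.54e-12) in IN.

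Of 21 neuropeptide and granule genes, 9 rose in IN alone, against 0.853% of all genes, 6 rose in both populations and 1 rose in Pyr alone, and Npy fell in Pyr. The medians were 1.5 in IN and 0.49 in Pyr. The IN genes were peptide precursors and peptide-binding proteins: Sst, Tac1, Tac2, Penk, Pdyn, Crh, Pnoc, Crhbp and Scg2. Penk, the enkephalin precursor, measured 7.84, 7.79 and 7.77 in IN P0, 10.78, 10.8 and 10.46 in IN P10, 8.02, 8.09 and 7.93 in Pyr P0 and 8.79, 8.76 and 8.7 in Pyr P12. It rose by 2.88 ± 0.08 (SE; adjusted p = 1.56e-11) in IN, and the Pyr difference of 0.73 stayed under the fold threshold. Sst, the somatostatin precursor, rose by 1.36 ± 0.15 (SE; adjusted p = 3.53e-06) in IN, and its Pyr difference was -0.92. Crh, the corticotropin-releasing hormone precursor, and Tac2, the neurokinin B precursor, lay close to background: they were not above it in IN P0 and were at least 1.05-fold and 1.38-fold higher in IN P10, and both calls were lost when values under background were set to that level (0.13 and 0.46). The shared genes included the granule proteins Chga (1.5 and 1.2), Chgb (1.85 and 1.87) and Vgf (2.15 and 1.65), and the peptide precursor Cck (2.05 and 2.03). Adcyap1, the precursor of the peptide PACAP, rose in Pyr alone (1.68, with -0.01 in IN).

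Promoters were read from RefSeq (GRCm38.p6) as 250 bases before to 50 after the start, 300 bases in all, and were found for 15613 of the 19937 genes, with the most upstream start where several were listed. The cAMP response element, TGACGTCA, a palindrome that reads the same on both strands, was in 2.47% of these promoters, in 8 of 140 of the genes that rose in IN alone (5.71%), in 11 of 392 of those that rose in both (2.81%), and in 5 of 243 of those that rose in Pyr alone (2.06%). None of 190 promoters of shared lower genes and none of 112 of genes that fell in Pyr alone held it. No test was made of these shares, and a match is a string of letters, not a measured site. The following promoters are shown because the element stands in granule and peptide or transmitter genes of 3 classes: Sst (chr16:23890795-23891094, minus strand), Scg2 (chr1:79439977-79440276, minus strand) and Th (chr7:142899946-142900245, minus strand), the rate-limiting enzyme of catecholamine synthesis, rose in IN alone (Scg2 2.59, with 0.74 in Pyr, and Th 3.02, with -0.02 in Pyr), Chgb (chr2:132781392-132781691, plus strand) rose in both, and Pcsk1 (chr13:75089607-75089906, plus strand), a protease that processes peptide precursors, rose in Pyr alone (3.27, with 0.28 in IN). Each is written 5′ to 3′ in the direction of transcription. The element is in capitals, as is, in Scg2, a match to GGTGCTGAA, the reverse complement of the RE1 fragment TTCAGCACC.
Sst: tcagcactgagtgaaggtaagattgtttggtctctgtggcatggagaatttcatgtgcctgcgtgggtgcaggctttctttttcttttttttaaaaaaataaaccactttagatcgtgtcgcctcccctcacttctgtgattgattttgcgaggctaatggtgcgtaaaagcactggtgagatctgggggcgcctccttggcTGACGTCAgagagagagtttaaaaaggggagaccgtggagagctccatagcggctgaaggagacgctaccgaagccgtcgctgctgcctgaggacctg
Scg2: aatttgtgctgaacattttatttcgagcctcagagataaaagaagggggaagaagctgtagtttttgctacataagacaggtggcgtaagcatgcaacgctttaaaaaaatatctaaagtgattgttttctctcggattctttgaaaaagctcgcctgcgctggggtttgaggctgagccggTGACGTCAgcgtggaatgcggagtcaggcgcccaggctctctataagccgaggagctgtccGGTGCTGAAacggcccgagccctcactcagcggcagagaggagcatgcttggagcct
Th: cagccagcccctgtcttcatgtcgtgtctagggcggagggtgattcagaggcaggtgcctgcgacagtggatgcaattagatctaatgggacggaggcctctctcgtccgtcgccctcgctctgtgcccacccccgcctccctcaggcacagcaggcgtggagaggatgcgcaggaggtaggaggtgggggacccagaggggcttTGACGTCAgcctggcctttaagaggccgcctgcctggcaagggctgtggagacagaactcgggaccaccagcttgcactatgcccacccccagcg
Chgb: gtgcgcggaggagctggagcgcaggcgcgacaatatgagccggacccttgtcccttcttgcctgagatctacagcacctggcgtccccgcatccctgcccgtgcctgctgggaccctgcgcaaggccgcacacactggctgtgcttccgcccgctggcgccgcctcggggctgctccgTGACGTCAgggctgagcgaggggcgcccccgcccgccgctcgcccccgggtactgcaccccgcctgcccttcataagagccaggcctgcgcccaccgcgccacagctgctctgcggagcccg
Pcsk1: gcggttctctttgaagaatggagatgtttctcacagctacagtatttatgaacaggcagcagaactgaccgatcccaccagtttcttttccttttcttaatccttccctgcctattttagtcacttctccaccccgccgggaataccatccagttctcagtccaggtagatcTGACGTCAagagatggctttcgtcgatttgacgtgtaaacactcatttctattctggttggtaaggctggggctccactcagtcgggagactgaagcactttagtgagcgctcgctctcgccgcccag

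Other motifs were searched on both strands of the same promoters. The EGR motif GCGTGGGCG was in 0.929% of all promoters and in 1 of 243 promoters of genes that rose in Pyr alone (0.412%). The CArG box was in 1.43% of all promoters and in 2.47% of those of genes that rose in Pyr alone. Its share was 3.57% (5 of 140) for genes that rose in IN alone and 4.88% (2 of 41) for those that fell in IN alone. TATAAA was in 12.1% of all promoters and in 6.38% of those of shared higher genes. The share was also below that of all promoters in each single-population class, between 7.0% and 9.29%, and was 10.5% for shared lower genes. In the opposite classes it was in 1 of 8 and 1 of 1 promoters. The RE1 fragment was in 0.416% of all and in 2.14% (3 of 140) of those of genes that rose in IN alone.

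Of 30 extracellular matrix and net genes, 7 rose in IN alone, 1 rose in Pyr alone and 3 fell in Pyr alone, with 2 shared in each direction (medians 0.43 in IN and -0.07 in Pyr). The shares of the single-population classes over all genes were 0.853%, 1.63% and 0.757%. Beside Hapln1 and Lgals1, Hpse, which cleaves heparan sulfate, was not above background in IN P0 or on any Pyr array and rose at least 4.63-fold in IN. Adamts15, a secreted metalloprotease, was not above background in IN P0 either, and rose at least 3.91-fold. Vcan, the proteoglycan versican, fell in IN (-1.43) and in Pyr (-3.03), a called difference. Reln, the secreted glycoprotein reelin, fell by 1.58 in Pyr and differed by 0.14 in IN. Among 34 vesicle release genes, 5 rose in both, 4 in IN alone and 2 in Pyr alone, against 2.53%, 0.853% and 1.63% of all genes (medians 0.57 and 0.83). Syt2, the calcium sensor of fast-spiking terminals, measured 7.8, 7.78 and 7.65 in IN P0, 10.52, 10.19 and 10.41 in IN P10, 7.79, 7.82 and 8.06 in Pyr P0 and 7.85, 8.06 and 7.97 in Pyr P12. It rose by 2.63 ± 0.09 (SE; adjusted p = 1.12e-10) in IN, with no overlap between ages, and its Pyr difference was 0.07. Cplx1, a complexin, rose by 2.13 in IN with 0.71 in Pyr. Sv2b, a synaptic vesicle glycoprotein, rose by 1.45 in Pyr with -0.48 in IN. Syp, synaptophysin, rose in both (1.97 and 2.11).

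Oligodendrocyte lineage genes were part of the rise found in IN alone. Of 13 myelinating oligodendrocyte genes measured, 6 rose in IN alone, against 0.853% of all genes, 1 rose in IN without a called difference and none was called in Pyr. The medians were 1.03 in IN and 0.17 in Pyr. The list mean was between 7.686 and 7.791 in IN P0, between 8.86 and 9.201 in IN P10, and between 7.31 and 7.567 on Pyr arrays, and Ermn and Opalin were not above background in any group. Enpp6, an early marker of differentiating oligodendrocytes, was not above background in IN P0 and measured 9.72, 9.21 and 9.48 in IN P10, at least 4.72-fold higher. Mag, a myelin-associated glycoprotein, measured 7.45, 7.44 and 7.61 in IN P0, 9.74, 9.19 and 9.09 in IN P10, 7.32, 7.51 and 7.59 in Pyr P0 and 7.65, 7.7 and 7.63 in Pyr P12 and rose by 1.84 in IN. The first IN P10 array was the highest of its group for both and for the mean of the precursor genes (10.15), and without it Enpp6, Mag and Bcas1 remained called and Gpr17 did not (0.85). Of 12 oligodendrocyte precursor genes, 2 were called higher and 2 lower in IN, against 4.44% and 2.48% of all genes, and none in Pyr. Bcas1 rose in IN alone (1.81) and Pdgfra, a growth factor receptor of these precursors, fell in IN alone (-1.34), with list medians of 0.13 and -0.01. Gpr17 (1.1), a receptor of differentiating precursors, and Cspg4 (-1.0), the NG2 proteoglycan, were called in IN without a called difference, and the call of Cspg4 was lost after a second quantile normalization and without the second IN P0, the second IN P10 (-0.83) or the third IN P10 array. The part of these cells in the other IN changes was not tested.

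Genes that fell in IN alone were fewer and included markers of pyramidal cells. The 8 with the largest difference and Pyr above background were Cbfa2t3, Neb, Ptbp3, Kcnh4, Tbr1, Klf10, Antxr1 and Itgb8, and the 3 with Pyr not above background were Amelx, Crybg3 and Nxph2, of which Nxph2 was lost without the first IN P0 (-0.82) or the first IN P10 array (-0.98). Cbfa2t3, a transcriptional corepressor, measured 11.77, 11.84 and 11.74 in IN P0, 9.43, 9.44 and 9.38 in IN P10, 9.58, 9.55 and 9.38 in Pyr P0 and 9.73, 10.0 and 9.74 in Pyr P12. It fell by 2.37 ± 0.08 (SE; adjusted p = 4.36e-11) in IN, and in Pyr the difference was 0.32. Its second probe set had an IN change of -2.42 and a Pyr difference of -0.61, of the other sign. Neb, which encodes the actin-binding protein nebulin, measured 10.92, 10.65 and 10.86 in IN P0, 8.07, 8.0 and 7.95 in IN P10, 7.78, 7.91 and 7.7 in Pyr P0 and 7.64, 7.67 and 7.65 in Pyr P12. It fell by 2.8 ± 0.07 (SE; adjusted p = 9.34e-12) in IN with a Pyr difference of -0.14. Tbr1, a transcription factor of deep-layer pyramidal cells, measured 9.89, 10.61 and 9.94 in IN P0, 7.44, 7.44 and 7.45 in IN P10, 12.81, 12.71 and 12.78 in Pyr P0 and 12.05, 12.15 and 12.02 in Pyr P12. It fell by 2.7 ± 0.14 (SE; adjusted p = 2.79e-09) in IN, from a level that was highest on the second IN P0 array. Of 17 pyramidal genes, 5 fell in IN, against 2.48% of all genes, and the second IN P0 array also had the highest mean of the list. Tbr1 and Neurod6 remained called in IN without that array. Neurod6, the gene that drives Cre in the pyramidal line, measured 9.75, 10.25 and 9.57 in IN P0, 6.28, 6.33 and 6.27 in IN P10, 12.46, 12.27 and 12.19 in Pyr P0 and 10.86, 10.58 and 10.84 in Pyr P12. It fell in both populations. The Pyr change was -1.55, and in IN it fell to below background, at least 6.17-fold. Pyramidal genes also included 2 that rose in both, Camk2a and Nrgn, so the list did not move as a block (medians -0.76 in IN and -0.1 in Pyr). The part of pyramidal RNA in IN P0 in these falls was not tested.

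The rise in Pyr alone was the largest of the single-population classes, and part of it brought Pyr to a level that IN already had at P0. The 8 genes of largest difference with IN above background were Cacng3, Pamr1, Gfra2, Slc1a2, Cadps2, Brinp3, Ano3 and Inka2, and the 4 largest with IN not above background were Nrn1, Atp6ap1l, Exph5 and Ccdc3. Gfra2, a receptor for neurturin, measured 11.45, 11.45 and 11.64 in IN P0, 11.15, 11.34 and 11.5 in IN P10, 7.93, 8.15 and 7.85 in Pyr P0 and 11.75, 11.74 and 11.6 in Pyr P12. All IN arrays and the Pyr P12 arrays were high, and only Pyr P0 was low. Gfra2 rose by 3.72 ± 0.1 (SE; adjusted p = 3.23e-12) in Pyr and differed by -0.19 in IN. Slc1a2, a glutamate transporter best known from astrocytes, measured 8.74, 8.89 and 8.76 in IN P0, 9.39, 9.28 and 9.26 in IN P10, 8.5, 8.64 and 8.51 in Pyr P0 and 12.7, 12.74 and 12.72 in Pyr P12. It rose by 4.17 ± 0.06 (SE; adjusted p = 2.84e-14) in Pyr, to a level that no IN array approached. The mean of the 15 astrocyte genes, Slc1a2 included, was between 8.217 and 8.251 in Pyr P0 and between 8.687 and 8.814 in Pyr P12, against 8.246 to 8.375 in IN P0 and 8.595 to 8.796 in IN P10. Of these 15 genes, 12 were above background in at least 1 group and Aqp4, Gjb6 and Gja1 were not. Of the 15, 3 were called higher in IN and 3 in Pyr, against 4.44% and 5.99% of all genes. The part of astrocytes in the rise of Slc1a2 was not tested. Pamr1 was not above background in Pyr P0 and measured 10.98, 11.37 and 11.18 in Pyr P12, at least 15.5-fold higher. Nrn1, the activity-related surface protein neuritin, was not above background on any IN array and rose by 3.18 ± 0.13 (SE; adjusted p = 1.45e-10) in Pyr. At P0, 60 of the 324 genes were called higher in IN and 19 higher in Pyr. At the later age 207 were called higher in Pyr P12 and 8 higher in IN P10. These gaps share arrays with the changes and are given as a description.

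Of 21 glutamate receptor genes, 4 rose in Pyr alone (Gria1, Grik1, Grm2 and Grm4), 1 in IN alone (Grin2d) and 1 in both (Grin2a). The shares over all genes were 1.63%, 0.853% and 2.53%. Grik1, a kainate receptor subunit, measured 11.39, 11.25 and 11.36 in IN P0, 11.56, 11.65 and 11.62 in IN P10, 7.5, 7.81 and 7.5 in Pyr P0 and 9.93, 10.15 and 10.5 in Pyr P12. It rose by 2.59 ± 0.12 (SE; adjusted p = 5.67e-10) in Pyr, where every P12 array was still below every IN array, and differed by 0.28 in IN. Grin2d, an NMDA receptor subunit of interneurons, measured 10.49, 10.22 and 10.27 in IN P0, 11.93, 12.01 and 12.16 in IN P10, 8.73, 9.02 and 8.79 in Pyr P0 and 9.15, 9.15 and 9.39 in Pyr P12 and rose by 1.71 in IN, with 0.38 in Pyr. Grin2a, the NMDA receptor subunit of mature synapses, rose by 1.38 in IN and by 2.86 in Pyr. The list medians were 0.02 and 0.53. Slc17a7, the vesicular glutamate transporter VGLUT1, measured 7.88, 8.33 and 7.86 in IN P0, 8.11, 8.09 and 8.22 in IN P10, 10.05, 10.31 and 10.25 in Pyr P0 and 13.36, 13.43 and 13.3 in Pyr P12. It rose by 3.16 ± 0.11 (SE; adjusted p = 3.60e-11) in Pyr and differed by 0.12 in IN. Of 23 excitatory postsynapse genes, Camk2a and Nrgn rose in both and Dlgap2 in Pyr alone, by 2.0, with -0.7 in IN (medians 0.27 and 0.48). Of 27 sodium and calcium channel genes, Scn1a and Scn2b rose in both, Cacna1h fell in both (its IN call was lost without the first IN P10 array, -0.98), and Cacna2d3 and Cacng3 rose in Pyr alone (medians 0.28 and 0.58). Cacng3, counted in this list and not among the glutamate receptor genes, is the auxiliary AMPA receptor subunit described above. The shares over all genes given for the glutamate receptors apply to the postsynapse and channel lists too, with 1.28% for a shared fall.

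Genes that fell in Pyr alone included receptors and signalling proteins of the developing neuron and markers of interneurons. With IN above background the 8 of largest difference were Npy, Ptprz1, Kif26b, Ddah2, Frmd4b, Stk32b, Robo1 and Nos1, and with IN not above background the 4 were Prkch, Slc26a7, Arhgap28 and Bmpr1b. Ptprz1, a receptor tyrosine phosphatase that binds matrix proteins, measured 11.97, 12.02 and 12.14 in IN P0, 11.94, 11.78 and 11.69 in IN P10, 12.05, 11.94 and 11.91 in Pyr P0 and 8.53, 8.13 and 8.44 in Pyr P12. It fell by 3.6 ± 0.1 (SE; adjusted p = 4.07e-12) in Pyr, with an IN difference of -0.24. Robo1, a receptor for Slit proteins, measured 11.33, 11.5 and 11.35 in IN P0, 12.07, 12.1 and 12.11 in IN P10, 12.39, 12.33 and 12.4 in Pyr P0 and 10.13, 10.32 and 10.36 in Pyr P12. It fell by 2.1 ± 0.07 (SE; adjusted p = 1.47e-11) in Pyr, and the IN difference of 0.7 was positive and under the fold threshold. Nos1, the neuronal nitric oxide synthase, measured 9.22, 9.62 and 9.19 in IN P0, 9.88, 9.76 and 9.72 in IN P10, 11.2, 11.16 and 11.18 in Pyr P0 and 8.9, 8.77 and 9.0 in Pyr P12. It fell by 2.29 ± 0.1 (SE; adjusted p = 3.03e-10) in Pyr, from a level above that of the IN P0 arrays. Prkch, a protein kinase C, was not above background in Pyr P12, at least 4.36-fold lower than in Pyr P0, but its second probe set had a Pyr difference of -0.004.

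Of 7 pan-interneuron genes, 5 fell in Pyr, of which Gad1, Gad2 and Dlx1 fell in Pyr alone and Dlx2 and Dlx5 fell in both. Over all genes the shares were 3.12% for a fall in Pyr, 0.757% for Pyr alone and 1.28% for both. Gad2, a GABA-synthesizing enzyme, measured 12.51, 12.63 and 12.81 in IN P0, 13.03, 13.04 and 13.22 in IN P10, 8.96, 9.03 and 8.28 in Pyr P0 and 7.32, 7.09 and 7.22 in Pyr P12. It fell by 1.55 ± 0.16 (SE; adjusted p = 1.43e-06) in Pyr and differed by 0.45 in IN. The third Pyr P0 array was the lowest of its group for Gad2 and had the lowest mean of the list, and Gad2, Erbb4 and Npy remained called in Pyr without it. Slc32a1, the vesicular GABA transporter, rose in IN alone (1.28). Erbb4, a receptor for neuregulins, measured 10.11, 10.34 and 9.66 in Pyr P0 and was not above background in Pyr P12, at least 6.36-fold lower, with -0.13 in IN. Of 12 MGE interneuron genes, 4 fell in Pyr and 2 rose in IN, against 3.12% and 4.44% of all genes (medians 0.15 and -0.45). Of 12 CGE (caudal ganglionic eminence) interneuron genes, 2 rose in IN alone and 2 in both, against 0.853% and 2.53% of all genes (medians 0.02 and 0.02). The part of interneuron RNA in Pyr P0 in these falls was not tested. For Npy and Nos1 the Pyr P0 mean was above the IN P0 mean, and for Gad2 it was 3.89 below it on the log2 scale.

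Many immediate early genes rose in Pyr and none rose in IN. Of 22 measured, 9 rose in Pyr alone, against 1.63% of all genes, Egr1 rose in Pyr and fell in IN, and 2 fell in IN alone. The median was -0.1 in IN and 0.93 in Pyr, and 14 of the 22 had a called difference, all with the IN change below the Pyr change, against 2.59% of all genes. Npas4, an activity-dependent transcription factor, measured 8.44, 8.07 and 8.27 in IN P0, 8.8, 8.67 and 8.64 in IN P10, 7.81, 8.19 and 8.08 in Pyr P0 and 10.67, 10.97 and 11.18 in Pyr P12. It rose by 2.92 ± 0.13 (SE; adjusted p = 4.01e-10) in Pyr and differed by 0.44 in IN. Nr4a1, a nuclear receptor, measured 9.84, 9.91 and 9.78 in IN P0, 9.47, 9.34 and 9.49 in IN P10, 8.99, 9.03 and 9.11 in Pyr P0 and 11.42, 11.64 and 11.6 in Pyr P12. It rose by 2.51 ± 0.07 (SE; adjusted p = 4.82e-12) in Pyr, and in IN the difference was -0.4. For these the Pyr P12 arrays were above all 9 others. Arc, a regulator of synaptic AMPA receptors, rose by 2.33 in Pyr with 0.26 in IN. Fos measured 9.28, 8.96 and 9.71 in IN P0, 8.72, 8.39 and 8.48 in IN P10, 7.64, 8.23 and 8.01 in Pyr P0 and 9.16, 9.43 and 9.49 in Pyr P12. It rose by 1.4 in Pyr, and its IN difference of -0.79 was negative and under the fold threshold.

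Not every immediate early gene followed. Jun fell in Pyr (-1.2), with -0.53 in IN and no called difference. Dusp1, a phosphatase of MAP kinases, and Nr4a3 fell in IN alone (-1.11 and -1.67), and the difference of Dusp1 was lost without the second IN P10 array (-0.99) or the third Pyr P0 array (-0.97). The 14 dissociation stress genes, which respond to heat and enzymatic digestion, had medians of 0.21 in IN and -0.03 in Pyr, and their list mean was between 9.595 and 9.852 on all arrays. A single gene of that list was called, Ddit4, which rose in IN alone (1.08), a call that was lost without the third IN P0 array (0.95). The time between dissection and sorting is not given in the sources used here. The part of dissociation and sorting in the immediate early changes was not tested, and the stress list does not measure it.

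In all, 15 genes changed in opposite directions. Those that rose in IN and fell in Pyr included secreted and matrix proteins. Sema3c, a secreted semaphorin, measured 8.09, 8.31 and 7.61 in IN P0, 9.87, 9.63 and 9.65 in IN P10, 10.6, 10.31 and 10.1 in Pyr P0 and 8.84, 8.68 and 8.55 in Pyr P12. It rose by 1.71 ± 0.16 (SE; adjusted p = 8.02e-07) in IN and fell by 1.65 ± 0.16 (SE; adjusted p = 9.79e-07) in Pyr, so that a gene higher in Pyr at P0 was higher in IN later. Timp3, an inhibitor of metalloproteinases, measured 8.37, 8.53 and 8.6 in IN P0, 9.94, 9.95 and 9.99 in IN P10, 9.37, 9.71 and 9.77 in Pyr P0 and 8.31, 8.13 and 8.3 in Pyr P12. It rose by 1.46 ± 0.1 (SE; adjusted p = 2.74e-08) in IN and fell by 1.37 ± 0.1 (SE; adjusted p = 3.53e-08) in Pyr. Sfrp2, a secreted modulator of Wnt signalling, measured 10.29, 9.87 and 9.99 in IN P0, 11.35, 11.33 and 11.25 in IN P10, 10.29, 10.0 and 9.98 in Pyr P0 and 8.36, 8.32 and 8.65 in Pyr P12. The populations overlapped at P0 and separated later, through a rise in IN (1.26) and a fall in Pyr (-1.65). Mme, the peptide-degrading enzyme neprilysin, rose by 1.23 in IN and fell by 1.22 in Pyr.

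Cldn1, a tight junction protein, was not above background in IN P0 or in Pyr P12. It rose at least 4.14-fold in IN and fell at least 1.7-fold in Pyr, and its Pyr call was lost without the third Pyr P0 array (-0.98) or the first Pyr P12 array (-0.99). Luzp2 rose by 1.12 and fell by 1.59. Btbd11, Hs6st2, Stac2 and Tmem74 rose by 1.25, 1.12, 1.11 and 1.07 in IN, and their Pyr changes were -1.14, -1.22, -1.41 and -1.74. Of these, Hs6st2 modifies heparan sulfate chains. The eleventh gene of this class, Acaa2, a mitochondrial thiolase, rose by 1.59 and its Pyr change was -1.0, which was not called without any 1 of 4 arrays (-0.93 without the first Pyr P12 array). The call of Tmem74 in IN was lost without the third IN P0 array (0.97).

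In the other direction, Egr1, Igfbp4, Tshz1 and P3h2 fell in IN and rose in Pyr. Igfbp4, a secreted binding protein of insulin-like growth factors, measured 11.43, 11.44 and 11.31 in IN P0, 10.56, 10.39 and 10.14 in IN P10, 9.02, 8.91 and 8.84 in Pyr P0 and 11.03, 10.93 and 10.72 in Pyr P12. It fell by 1.03 ± 0.1 (SE; adjusted p = 1.35e-06) in IN and rose by 1.97 ± 0.1 (SE; adjusted p = 1.64e-09) in Pyr, and its IN call was lost without the third IN P10 array (-0.92). Tshz1, a zinc finger transcription factor, measured 10.28, 10.18 and 10.31 in IN P0, 9.27, 9.16 and 9.03 in IN P10, 8.59, 8.58 and 8.11 in Pyr P0 and 9.88, 9.99 and 10.0 in Pyr P12. It fell by 1.1 and rose by 1.53. P3h2, a prolyl hydroxylase of collagen, fell by 1.19 in IN and rose by 1.07 in Pyr. All 4 were called higher in IN than in Pyr at P0. With a threshold of 1.5-fold in place of 2-fold the opposite genes numbered 36 and 35 in the 2 directions, so the imbalance of 11 to 4 did not hold at that threshold.

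**Figure D4:**
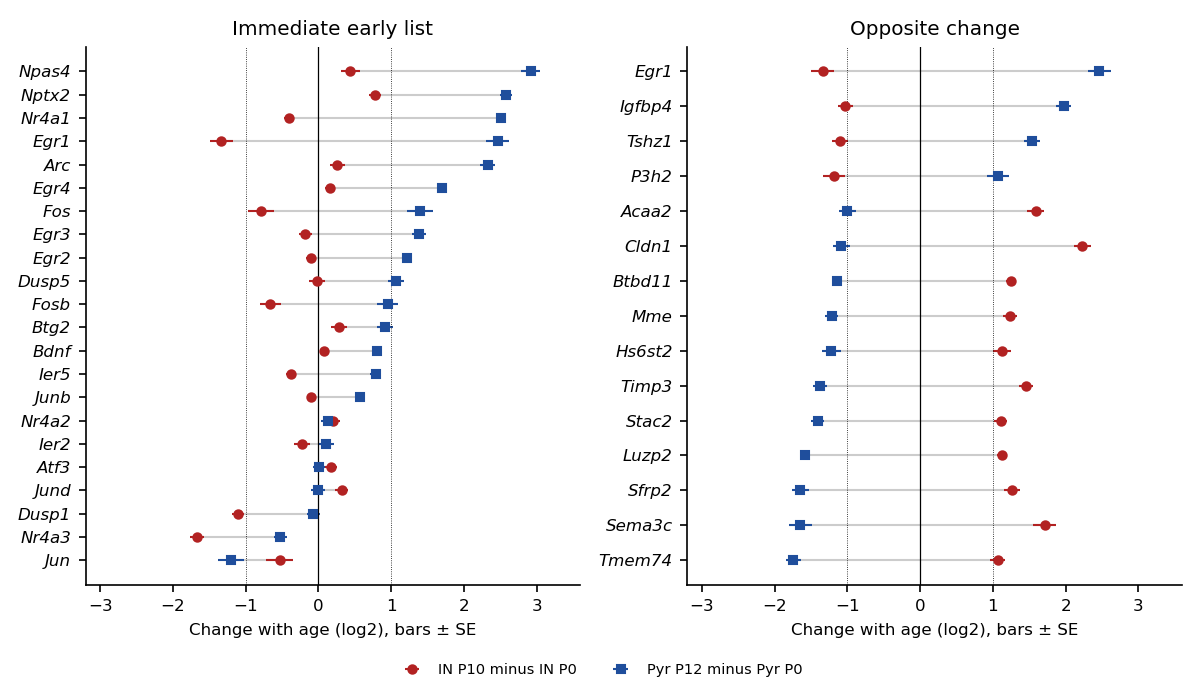
Change with age (x axis, log2) in IN (red circles) and in Pyr (blue squares) for 22 immediate early genes and the 15 genes of opposite change, 1 gene per line; bars are the SE and dotted lines mark a fold change of 2. Of the immediate early genes, 10 rose in Pyr and none in IN, and the opposite genes lie on both sides of 0.

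Axon guidance genes were spread over the classes. Of 45, 3 rose and 5 fell in both populations, 1 rose in IN alone, 2 rose and 3 fell in Pyr alone, and Sema3c moved in opposite directions (medians 0.19 and -0.18). Over all genes the shares were 2.53% and 1.28% for the shared classes, 0.853% for a rise in IN alone, and 1.63% and 0.757% for Pyr alone. Plxnb1, a plexin, fell in both (-2.1 and -2.41). Draxin, a secreted axon repellent, fell in Pyr (-3.39) and in IN (-1.8), a called difference. Plxnd1, a receptor for semaphorins, rose in Pyr (1.7) with -0.69 in IN. Cntn2, an axonal adhesion protein, fell in Pyr (-2.08) with 0.01 in IN. Of 19 cholesterol synthesis genes, 1 rose in both (Ebp) and 1 in IN alone (Nsdhl, lost without the third IN P0 array at 0.98), with medians of 0.51 in IN and -0.14 in Pyr. Of the lists of other cells, 11 endothelial, 12 mural and fibroblast and 3 erythroid genes had none called, Cd68 alone fell in both among 13 microglia and macrophage genes, and of 15 astrocyte genes 1 was shared (Clu), 1 rose in IN alone (Slc4a4) and 1 in Pyr alone (Slc1a2). None of 4 sex-linked genes was called.

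**Figure D5:**
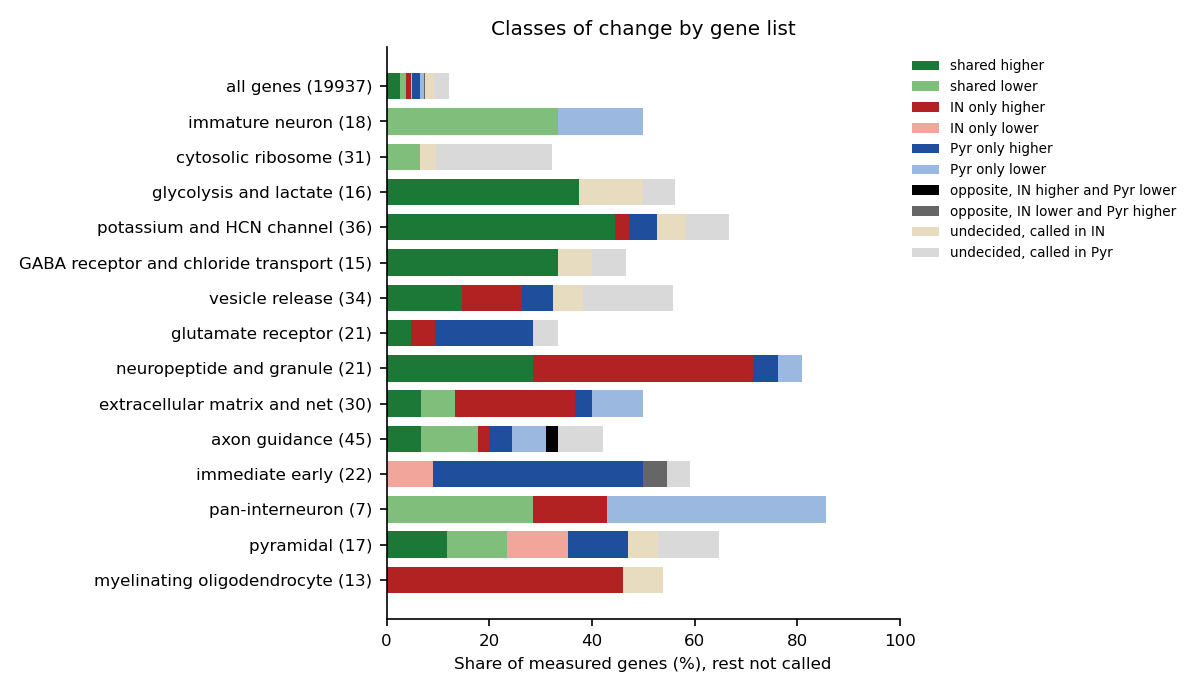
Share of the measured genes of each list (number in parentheses) that fell in each class of change, in percent, beside all 19937 genes; the remainder was not called. Among called members, a shared rise was most frequent for potassium channel, GABA receptor and glycolysis genes, a rise in IN alone for neuropeptide, matrix and myelin genes, and a rise in Pyr alone for immediate early genes.

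More genes were called between the populations at the later ages than at P0. Among all genes, 375 were called higher in IN and 353 higher in Pyr at P0, and 508 and 573 at the later ages. The absolute difference was larger later than at P0 in 13653 of all 19937. Of these, 12053 were among the 17513 genes whose change was called in neither population. Over all genes, 5593 were not above background in IN and 5532 in Pyr. The count was not repeated under other scalings. The median Pyr change was 0.07 as deposited and -0.008 after a second quantile normalization. Of the 170 genes that rose in IN alone, 121 were called higher than in Pyr at the later age and none lower, while at P0 17 had been higher in IN and 34 higher in Pyr. Of the 151 that fell in Pyr alone, 46 had been called higher in Pyr at P0 and 74 were higher in IN later. Nos1 was called higher in Pyr at P0, and Robo1 higher in IN later. These genes were chosen on the same arrays, so the direction of the later difference is largely set by the class and is given as a description.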

How the data were processed

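RNA of GFP+ cells sorted from mouse cortex was hybridised to 12 Affymetrix Mouse Gene 1.0 ST arrays, 3 for each of 4 groups. The deposited values are log2 expression per probe set, which the authors made by Robust Multiarray Average (RMA), with background correction, quantile normalization and summary of probes. RMA sets all arrays to 1 distribution, so values are relative, and a fold change of a dim gene is understated. Arrays hold no read depth, and their number limits the precision.

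Of 28192 probe sets, 21640 had 1 gene symbol in the platform annotation, 1321 had several and 5231 had none here. Symbols of 21553 probe sets were found in RefSeq and 0 changed. The 22961 probe sets with a symbol entered 1 limma fit (limma 3.58.1, R 4.3.3) of 4 groups with 8 residual degrees of freedom, without covariates, which gave the change in IN, the change in Pyr and their difference (age by population). Probe sets with several symbols were fitted and not named. Figures were drawn with Python 3.11.15 and matplotlib 3.10.9. A group was not above background when no array of it exceeded that array's background level, the 95th percentile of its probe sets for olfactory and vomeronasal receptors, and folds from such groups are bounds set at that level. Of 19937 genes, 14632 were above background in at least 1 group. The methods' test, SAM with FDR under 0.05 and a fold over 2, was an alternative. The fit was tested on simulated data. An exact permutation test of 3 arrays against 3 cannot go below 0.1 and was not used.

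Genes were named by rule: Npy, Lgals1, Cacng3 and Egr1, the 10 per shared or opposite class ranked by the smaller of their changes, the 8 (other population above background) and 4 (not above) with the largest difference per single-population class, and up to 4 per list with the largest change. Symbols of the types Gm, Rik, LOC, Mir, Snor, Olfr and Vmn were counted and not named. Not every gene that the rule picked for the lists is named in the text, Syt13, Syn2 and Nptx2 being among those left out. Other genes named in the text, among them Adcyap1, Arc, Chgb, Dcx, Fos, Hpse, Kcna1, Kcnh5, Scg2, Slc32a1, Sst, Sv2b and Syp, and the genes whose promoters are shown, were chosen after their values were seen. The members, the classes and the 32 lists (immature neuron, axon guidance, microtubule and neurofilament, cell cycle, potassium and HCN channel, sodium and calcium channel, vesicle release, GABA receptor and chloride transport, glutamate receptor, excitatory postsynapse, neuropeptide and granule, extracellular matrix and net, immediate early, dissociation stress, glycolysis and lactate, oxidative phosphorylation, cytosolic ribosome, cholesterol synthesis, RNA binding and splicing, DNA methylation, pan-interneuron, MGE interneuron, CGE interneuron, pyramidal, oligodendrocyte precursor, myelinating oligodendrocyte, astrocyte, microglia and macrophage, endothelial, mural and fibroblast, erythroid, sex-linked) were chosen with earlier results of these data known, and the lists were given no test.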

Additional observations from a re-analysis of the deposited data

Results flagged for a closer look

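The change differed between interneurons and pyramidal cells, by the test of the difference itself (limma, age by population), in 450 genes with the larger signed change in IN and in 517 with the smaller. Each value is the IN change minus the Pyr change on the log2 scale for a gene named above, and all passed an adjusted p under 0.05 and a fold over 2. No weighing of causes was made, and population, age span and cortical area cannot be told apart. Dixon's test for a single outlying array was not applied to groups of 3.

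Among genes that rose in both populations, the IN change was above the Pyr change for Slit2 (1.16). The IN change was below the Pyr change for Lamp5 (-3.14), Kcnj9 (-1.57), Slc12a5 (-1.51) and Grin2a (-1.47).

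Among genes that fell in both, the IN change was above the Pyr change for Igfbpl1 (1.62), Draxin (1.6), Vcan (1.6) and Zfp558 (1.08). The IN change was below the Pyr change for Neurod6 (-2.02).

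Among genes that rose in IN alone, the IN change was above the Pyr change for Tac1 (4.13), Lgals1 (3.77), Hapln1 (3.73), Crhbp (3.35), Lpl (3.34), Rbp4 (3.31), Nek7 (3.19), Pcp4l1 (3.16), Hpse (3.16), Calb2 (3.07), Th (3.04), Ret (2.92), Zfp804a (2.86), Kcnab1 (2.75), Enpp6 (2.72), Syt2 (2.56), Sst (2.28), Adamts15 (2.21), Penk (2.15), Pdyn (2.12), Scg2 (1.86), Pnoc (1.85), Bcas1 (1.82), Mag (1.65), Slc4a4 (1.52), Slc32a1 (1.47), Ddit4 (1.46), Cplx1 (1.42), Grin2d (1.33), Nsdhl (1.23), Crh (1.23), Tac2 (1.03) and Nefh (1.0).

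Among genes that fell in IN alone, the IN change was below the Pyr change for Cbfa2t3 (-2.69), Neb (-2.66), Ptbp3 (-2.25), Kcnh4 (-2.13), Tbr1 (-2.01), Klf10 (-1.88), Antxr1 (-1.76), Itgb8 (-1.69), Amelx (-1.42), Pdgfra (-1.29), Crybg3 (-1.19), Nr4a3 (-1.15), Nxph2 (-1.09), Dusp1 (-1.04) and Vgll4 (-1.0).

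Among genes that rose in Pyr alone, the IN change was below the Pyr change for Cacng3 (-3.94), Gfra2 (-3.91), Pamr1 (-3.91), Slc1a2 (-3.66), Cadps2 (-3.62), Brinp3 (-3.57), Nrn1 (-3.3), Atp6ap1l (-3.22), Ano3 (-3.22), Inka2 (-3.12), Slc17a7 (-3.04), Pcsk1 (-2.99), Exph5 (-2.93), Nr4a1 (-2.91), Ccdc3 (-2.73), Dlgap2 (-2.7), Npas4 (-2.48), Plxnd1 (-2.39), Grik1 (-2.31), Fos (-2.19), Arc (-2.07), Grm2 (-2.03), Kcnh5 (-1.94), Sv2b (-1.93), Nefm (-1.76), Cacna2d3 (-1.71), Adcyap1 (-1.69), Grm4 (-1.58), Gria1 (-1.26), Nova1 (-1.26) and Rbfox3 (-1.24).

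Among genes that fell in Pyr alone, the IN change was above the Pyr change for Npy (4.73), Ptprz1 (3.36), Kif26b (3.34), Ddah2 (3.19), Frmd4b (3.18), Stk32b (3.13), Robo1 (2.8), Nos1 (2.73), Erbb4 (2.66), Prkch (2.28), Cntn2 (2.09), Slc26a7 (2.09), Gad2 (2.0), Arhgap28 (1.9), Reln (1.72), Gad1 (1.64), Dlx1 (1.63), Igf2bp1 (1.56), Tubb2b (1.47) and Bmpr1b (1.38).

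Among genes that rose in IN and fell in Pyr, the IN change was above the Pyr change for Sema3c (3.36), Cldn1 (3.31), Sfrp2 (2.91), Timp3 (2.83), Tmem74 (2.81), Luzp2 (2.71), Acaa2 (2.59), Stac2 (2.52), Mme (2.45), Btbd11 (2.39) and Hs6st2 (2.34).

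Among genes that fell in IN and rose in Pyr, the IN change was below the Pyr change for Egr1 (-3.8), Igfbp4 (-3.0), Tshz1 (-2.64) and P3h2 (-2.26).

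For Adamts15, Amelx, Ano3, Arhgap28, Atp6ap1l, Bcas1, Bmpr1b, Calb2, Ccdc3, Cldn1, Crh, Crhbp, Crybg3, Enpp6, Erbb4, Exph5, Hapln1, Hpse, Igf2bp1, Nek7, Neurod6, Nrn1, Nxph2, Pamr1, Prkch, Slc26a7, Tac1, Tac2 and Zfp558 at least 1 group was not above background, so that the value is a difference of measured values that include background and is not a bound.

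The difference of Zfp558 was not called with values under background set to that level (0.588), without the first IN P10 array (0.9991) or without the first Pyr P0 array (0.912). At least 1 alternative also ended the call of the difference for Crh (-0.006634), Dusp1 (-0.969), Igf2bp1 (0.774), Nefh (0.914), Nxph2 (-0.883), Slit2 (0.971), Tac2 (0.324) and Vgll4 (-0.911), each with the value nearest 0.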

How the results depend on the processing

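Of 10738 values of the 206 genes with a call that were named by the rule or in the text, over 16 alternatives and the leaving out of each of the 12 arrays, 10667 kept their direction and side of the threshold, 70 lost the call and 1 changed sign: with values under background set to that level, the difference of Crh was -0.006634. Among the 16, the other rules for a change in a single population gave counts and no gene values. SAM and the fits of each population alone gave no gene values for the difference. Many of the 10738 values could not move, or could lose a call only through the p-value. A looser fold threshold cannot end a call. Leaving out an array of one population does not move the log2 change of the other, and several fits left all log2 changes as they were. The 10667 therefore overstate how far the calls were put to the test. Scaling moved the median of all genes by under 0.1 (log2). Counts of genes moved by over 1.5 times only where the threshold or the rule changed, and robust limma-trend, other probe sets, other scalings and an adjusted p under 0.01 kept every count within that range, as did SAM for the counts in IN, in Pyr, shared and opposite, to which it was applied. Scaling turned the balance of the difference, with 450 IN changes above and 517 below Pyr as deposited, 478 and 480 with arrays centred on the median, and 502 and 456 after a second quantile normalization. With a fold over 1.5 the counts (higher, then lower) were 2015 and 1667 in IN, 2518 and 1522 in Pyr, 1077 and 1487 for the difference (IN above, then below), 1272 and 879 shared, 348 and 246 in IN alone, 671 and 329 in Pyr alone, and 36 and 35 opposite (IN higher, then IN lower). Without a fold threshold they were 4710 and 4380, 6835 and 4065, 2387 and 4143, 3503 and 2768, 522 and 758, 1380 and 491, and 309 and 406. Without the test of the difference, 371 and 235 genes were assigned to IN alone and 687 and 356 to Pyr alone. Leaving out 1 array at a time gave 865 to 913 and 478 to 513 in IN, 1180 to 1208 and 586 to 677 in Pyr, 437 to 473 and 504 to 539 for the difference, 495 to 513 and 240 to 276 shared, 164 to 180 and 46 to 59 in IN alone, 313 to 333 and 146 to 161 in Pyr alone, and 9 to 12 and 3 to 5 opposite, in the same order. The causes were not tested. The letters A, B and C are not stated to mark a shared litter or day: deviations of same-letter samples correlated between -0.18 and 0.19 over 18 pairs (median 0.04), and those of other letters between -0.257 and 0.298 over 36. A fit with the letter as a replicate block changed p-values but no count, since Xist was the 1 gene past the fold threshold that missed the p threshold, in each comparison and in both fits (886 and 495 in IN, 1195 and 623 in Pyr, 450 and 517 for the difference, 504 and 256 shared, 170 and 54 in IN alone, 324 and 151 in Pyr alone, 11 and 4 opposite). The number of arrays and the background level limit what can be seen of dim genes.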
